A study of Mus musculus with 24 samples.

Results

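An m6A peak is a stretch of RNA that an antibody against N6-methyladenosine (m6A) pulled down more than the matching input. The peaks described here are those of control B16-OVA cells that recurred in both other m6A peak lists of the study. A peak of the shNC list was chosen by the positions of the peak calls. At least 1 base of its blocks had to be covered, on the same strand, by a peak of the shFto list and by a peak of the Dac51 list. A call itself rests on enrichment over input, so the choice is not independent of fold enrichment. The rule kept 7087 of the 8479 shNC peaks (83.6%), in 4686 genes, out of 29140 peaks in the 3 lists together. The shared peaks met 6815 of the 10811 shFto peaks (63.0%) and 6863 of the 9850 Dac51 peaks (69.7%).

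The study asked how the RNA demethylase FTO shapes B16-OVA cells, a mouse melanoma line of C57BL/6 background that carries the ovalbumin antigen and was grown in puromycin. The 3 m6A conditions were cells with a control hairpin (shNC) in DMSO, cells with a hairpin against Fto (shFto) in DMSO, and shNC cells in 5 µM Dac51, with a stated treatment of 48 h. Dac51 is known here only by its code, and the labels do not say which shFto line was used. Each condition had 1 antibody library and 1 input library, so a difference between conditions and a difference between libraries cannot be told apart and no m6A value below carries an error or a test. RNA-seq of untreated shFto and shNC cells, 3 libraries each with 11152404 to 19665589 counts, gave the only replicated measure of the genes that hold these peaks. The labels do not say that these libraries came from separate cultures, so their p-values measure the spread between libraries only.

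m6A is laid down on messenger RNA while it is made, by a complex of METTL3 and METTL14 with WTAP, VIRMA, ZC3H13, RBM15 and CBLL1. It favours the DRACH consensus and is known to gather in long internal exons and around stop codons. FTO and ALKBH5 remove it, FTO also acts on the related m6Am at the cap, and YTHDF proteins bind m6A and speed the decay of many transcripts.

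GGACT, 1 sequence that fits DRACH in DNA letters, could be looked for where RefSeq promoter windows of the mm10 assembly overlapped a peak. Other sequences that fit DRACH were not counted. These windows covered 13014 bases of 146 shared peaks (2.06%), mostly at the 5′ ends of genes, and the sequence of the other shared peaks was not used here. GGACT stood 30 times on the peak's own strand, 2.31 per kb, and 9 times on the opposite strand, 0.692 per kb. Over all 32817 promoter windows of 300 bases it stood at 1.03 per kb on either strand, and 26.1% of the windows held it on the gene's strand. Each window runs from 250 bases before a start to 50 after it, so most of it lies upstream of that start. The rate over all windows is therefore no matched background for peak bases. Shares of windows and of peaks are also unlike, because the bases read per window and per peak differ. Of the 146 shared peaks 19 (13.0%) held it on their own strand, against 9 (6.16%) on the opposite one. The unshared shNC peaks had 4 matches in 3056 bases, 1.31 per kb. A match is a run of letters and not a mapped methylation site.

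The sites below show that motif inside shared peaks of 1 block, with GGACT in capitals and each strand read 5′ to 3′. Jun and Dnajb1 follow the rule for named genes. Rbbp6, which had the highest shNC fold enrichment of such sites, Pcif1, the writer of cap m6Am, and the histone demethylase gene Kdm5a were added after their values were seen.
Rbbp6, chr7:122970589-122970617, plus strand: gcggggtcattcGGACTctaacgtgtgga
Jun, chr4:95052078-95052106, minus strand: gccgcggactccGGACTgttcatccgttt
Pcif1, chr2:164891155-164891183, plus strand: cacagactgctaGGACTcagcctcagggc
Kdm5a, chr6:120364353-120364381, plus strand: tcctgcggtggcGGACTgatttagcagca
Dnajb1, chr8:83608328-83608356, plus strand: ggccatgggcaaGGACTactatcagacgc
The Rbbp6 peak had a fold enrichment of 16.8 in shNC, 19.4 in shFto and 29.4 in Dac51. The peak in Pcif1 gave 3.63, 5.75 and 4.29, the one in Kdm5a 2.66, 3.16 and 3.11, and the one in Dnajb1, a heat shock co-chaperone gene, 1.66, 2.08 and 5.16, in the same order. All 4 were lowest in shNC, but the printed sites were picked from 10. Among those not printed, the peaks in Lzts3 (4.6, 2.4 and 8.17) and Dnaaf2 (3.84, 3.24 and 4.83) were lowest in shFto. The other peaks with an unprinted site were lowest in shNC. The Jun peak with this site is the weaker of 2 shared Jun peaks and is described with the AP-1 genes below.

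Fold enrichment at the shared peaks was higher in both other lists than in shNC. Fold enrichment is the authors' ratio of antibody over input for a peak, and where several peaks overlapped a shared peak the highest one was taken. Its median was 5.41 in shNC (middle 50% of peaks 3.11 to 10.4), 9.18 in shFto (4.80 to 17.5) and 8.56 in Dac51 (4.49 to 16.7). The median log2 ratio to shNC was 0.61 for shFto and 0.55 for Dac51, and both use the same shNC list. Of the 7087 peaks, 5822 (82.2%) were higher in shFto and 5645 (79.7%) in Dac51. Both lists were higher at 5031 peaks (71.0%) and both lower at 643 (9.07%). The remaining peaks split by condition, 775 higher in shFto and lower in Dac51 and 605 the other way, besides ties.

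A rise of at least 2-fold was seen at 2070 shared peaks (29.2%) in shFto and 1872 (26.4%) in Dac51. Among all shNC peaks with a partner in the list concerned these shares were 28.5% and 26.2%. Falls of at least 2-fold were rare, at 147 peaks (2.07%) in shFto, against 2.55% of all shNC peaks with a partner, and at 180 (2.54%) in Dac51, against 2.64%. Because the rule set which peaks could be compared, these shares describe the peaks and test nothing. Between the other conditions the difference was small: the median log2 ratio of Dac51 over shFto was -0.06, with 3277 peaks higher in Dac51 and 3781 in shFto.

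**Figure D1:**
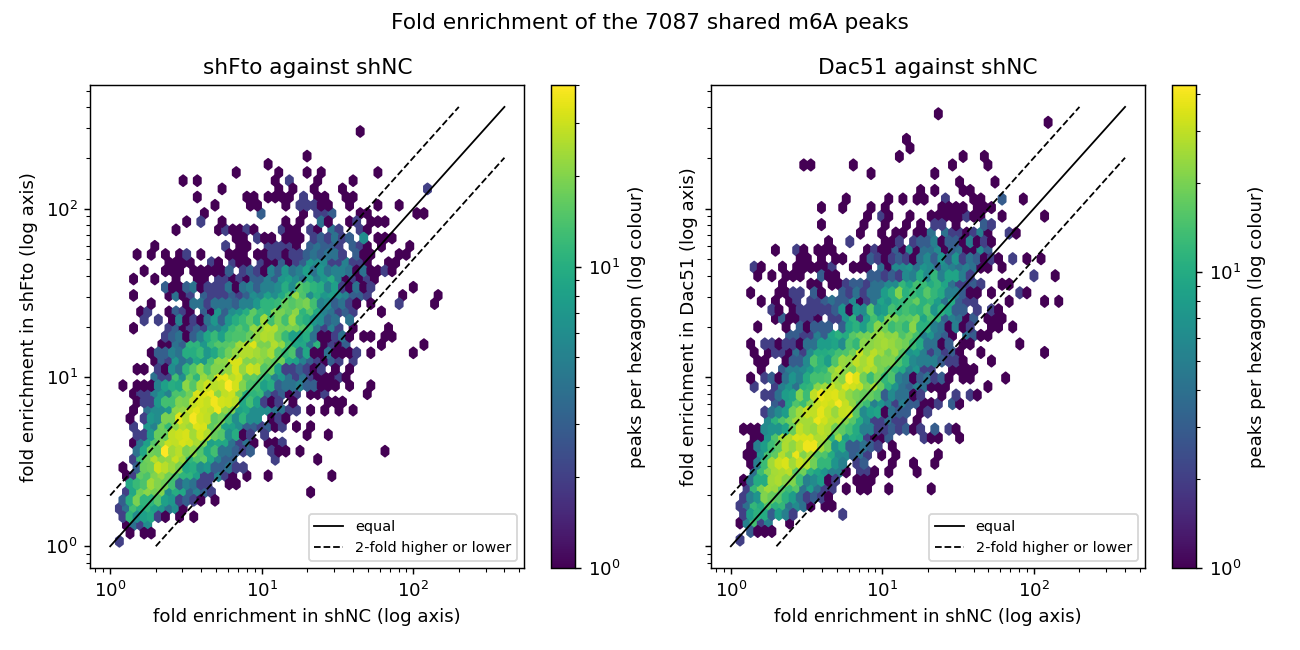
Fold enrichment of each of the 7087 shared peaks in shNC (horizontal, log axis) against its partner in shFto (left) or Dac51 (right; vertical, log axis), drawn as hexagons coloured by the number of peaks. The solid line marks equal values and the dashed lines 2-fold differences; the cloud lies mostly above the solid line, with 82.2% of peaks higher in shFto and 79.7% in Dac51.

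Split into quintiles by shNC fold, from the weakest (1.15 to 2.78) to the strongest (12.3 to 146), the median log2 ratios for shFto were 0.66, 0.74, 0.68, 0.64 and 0.36. For Dac51 they were 0.59, 0.64, 0.61, 0.55 and 0.36. The shNC fold is also the denominator of these ratios, so a lower ratio at the top is partly built into the split. Ranked within its own list, the median shared peak stood at percentile 52.7 in shNC, 63.0 in shFto and 63.3 in Dac51. The last 2 lists hold more peaks, so these ranks come from lists of different lengths. The partners were also wider: 74.2% were wider in shFto and 67.0% in Dac51, and the median covered 420 and 389 bases against 328 in shNC.

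Some partners covered more than 1 shared peak. In shFto 796 shared peaks had a partner that also covered another shared peak, and in Dac51 741 did, so neighbouring shNC peaks then share 1 value. The 5903 peaks (83.3%) with 1 partner in each list, taken by no other shared peak, had median log2 ratios of 0.56 (shFto) and 0.52 (Dac51). Below, these are called peaks with a partner of their own, although that partner could also cover an unshared shNC peak. The other shared peaks had medians of 0.85 and 0.79.

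At the edge of the rule, shared peaks in Fzd5, a Wnt receptor gene, Elk4, an ETS factor gene, and Cenpl, a centromere protein gene, met a partner by 1 base only. Their shNC fold enrichments were 2.78, 1.85 and 3.22. Just outside it, the unshared peaks in Zfp952, Plekho1 and Kif24 lay no more than 28 bases from a peak in each list, with folds of 4.13, 1.24 and 3.94. Of the 1392 unshared shNC peaks, 434 had a partner in shFto only, 195 in Dac51 only and 763 in neither. Unshared peaks were narrower than shared ones, with a median of 120 bases, and weaker, with a median fold of 3.00 and a median log10 false discovery rate of -2.68 against -17.5.

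The strongest shared peaks, ranked by the lowest of their 3 values, lay in genes of varied function. Shank2, which encodes a scaffold of excitatory synapses, had 118 in shNC, 134 in shFto and 315 in Dac51 at chr7:144420881-144421210. Nlgn1, a synaptic adhesion gene, had 119, 129 and 94.3 at chr3:26133496-26133884. Armcx4, of the armadillo repeat family, followed with 84.5, 102 and 108. The order of the conditions thus varied even among the top 3. Exosc6, a subunit gene of the RNA exosome, had 59.4, 162 and 92.2. Pde4b, a cAMP phosphodiesterase gene, had 56.4, 86.0 and 146 over a peak of 2 blocks. Thap7, a zinc-finger repressor gene, was highest in shNC, with 77.5 against 54.5 and 75.7. The sialyltransferase gene St3gal2, the leucine-rich repeat gene Lrig2, the molybdenum cofactor gene Mocs3 and the methyltransferase gene Mettl6 complete the 10, with lowest values between 50.0 and 63.1. In the RNA, Exosc6 fell from 133 ± 7.63 to 81.8 ± 14.0 CPM (counts per 1000000, TMM-scaled; SD, n = 3 each; edgeR adjusted p = 4.52e-05) and Mocs3 from 21.3 ± 2.31 to 11.8 ± 1.32 CPM (edgeR adjusted p = 1.35e-04). The RNA of the other 8 did not pass the test. Shank2 did without shFto replicate 2 (edgeR adjusted p = 0.0366), without the expression filter (0.0376) and, with Thap7, under scaling by library totals (0.0429 and 0.0312). Mean RNA was low in Nlgn1 (1.01 CPM) and Shank2 (4.76 CPM), against a median of 42.0 CPM over tested genes with a shared peak. The other genes of the 10 had means from 13.9 to 107 CPM. Fold enrichment is divided by input, and the part of low RNA in these folds was not tested.

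The largest rises in both lists came from weak shNC peaks, with shNC folds of 1.46 to 2.85. All 6 that the rule names, in Arid1b, Chsy3, C1galt1, Rrs1, Zbtb14 and Trps1, had partners that covered another shared peak or had several partners. In Arid1b, a SWI/SNF subunit gene, a peak of 61 bases at chr17:5341844-5341904 went from 1.46 to 50.8 in shFto and 47.7 in Dac51. The adjoining peak of 1259 bases, at chr17:5341964-5343222, went from 23.9 to the same 50.8 and 47.7. The steep rise of the small peak therefore reads the value of a partner that spans both. Among peaks with a partner of their own, a restriction added after these values were seen, the largest rise was in Cebpd, a C/EBP transcription factor gene. Its peak at chr16:15888118-15888445 went from 10.9 to 183 in shFto (16.8-fold) and 107 in Dac51 (9.82-fold). Next were Zfhx4, a homeobox gene (3.33 to 32.6 and 33.4), the adenylyl cyclase gene Adcy9 (5.84 to 56.6 and 66.2), the zinc-finger gene Zfp958 (3.75 to 33.9 and 33.8), Akap17b (6.00 to 53.1 and 116) and the interleukin receptor gene Il13ra1 (7.66 to 66.9 and 92.2). Cebpd RNA lay at 4.18 ± 1.02 CPM in shFto and 4.50 ± 1.17 CPM in shNC (SD, n = 3 each; edgeR adjusted p = 0.818). Apart from an equal 271 bases for Il13ra1 in Dac51, all partners from Cebpd to Il13ra1 were wider than the shNC peak. They covered 927 (shFto) and 390 (Dac51) bases against 120 in Zfp958, and 447 and 477 against 328 in Cebpd. Mean RNA was low in Cebpd (4.3 CPM), Il13ra1 (4.4 CPM) and Akap17b (8.0 CPM). The part of partner size and RNA level in these rises was not tested.

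The largest falls in both lists were mostly peaks with a partner of their own. Zfhx3, a homeobox gene, had 64.5 in shNC, 3.55 in shFto and 10.6 in Dac51 at chr8:108957047-108957347. Fam13a had 114, 14.9 and 14.3, and Ube2v1, a ubiquitin-conjugating enzyme variant gene, 20, 2.16 and 2.13. These 3 kept between 0.055 and 0.164 of their shNC value. The falls at Nup210, a nuclear pore gene, Cyb5rl and Tagap1 left between 0.133 and 0.203 of it, and the Tagap1 peak had the highest shNC value of any shared peak, 146. None of the 6 genes passed the RNA test, although Zfhx3 did without shNC replicate 3 (edgeR adjusted p = 0.0335). Some partners were much smaller than the shNC peak. They covered 61 (shFto) and 91 (Dac51) bases against 330 in Ube2v1, 61 (shFto) against 301 in Zfhx3 and 90 (Dac51) against 179 in Cyb5rl. In Fam13a and Tagap1 the partners were as wide as the shNC peak or wider. Mean RNA was low in Fam13a (3.24 CPM) and Cyb5rl (3.61 CPM). The part of partner size and RNA level in these falls was not tested. The read counts behind the folds are not in the lists used here.

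Of the shared peaks 6144 were single blocks and 943 (13.3%, exact 95% binomial interval 12.52% to 14.12%, counting error only) had 2 to 5 blocks, which is how the lists write a peak that skips an intron. The unshared shNC peaks had 12.4%. Multi-block peaks were wider (median 448 against 300 bases) and had higher folds in all lists: 6.94 against 5.19 in shNC, 11.2 against 8.97 in shFto and 10.8 against 8.22 in Dac51. Their ratio to shNC was no larger, with medians of 0.52 against 0.62 (shFto) and 0.54 against 0.56 (Dac51) on the log2 scale.

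At matched width multi-block peaks no longer had the higher medians throughout. In the narrowest quintile (60 to 181 bases) the median shNC fold was 2.65 for single and 2.27 for multi-block peaks, in the middle quintile 5.79 and 5.35, and in the widest (538 to 2872 bases) 10.5 and 11. In shFto multi-block medians were lower in the second quintile (4.72 against 6.54) and the middle one (7.18 against 9.53) and similar in the widest (16.5 against 16.2). In Dac51 they were lower in the narrowest (3.26 against 4.39) and higher in the widest (18.4 against 15.9). Width itself moved with fold: over all shared peaks the shNC median rose from 2.63 in the narrowest to 10.6 in the widest quintile, and the share of multi-block peaks from 3.16% to 23.1%. Block structure was mostly kept between conditions. A multi-block shNC peak had a multi-block partner in 81.3% of cases in shFto and 81.5% in Dac51, while 10.1% and 8.04% of single-block peaks did.

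**Figure D2:**
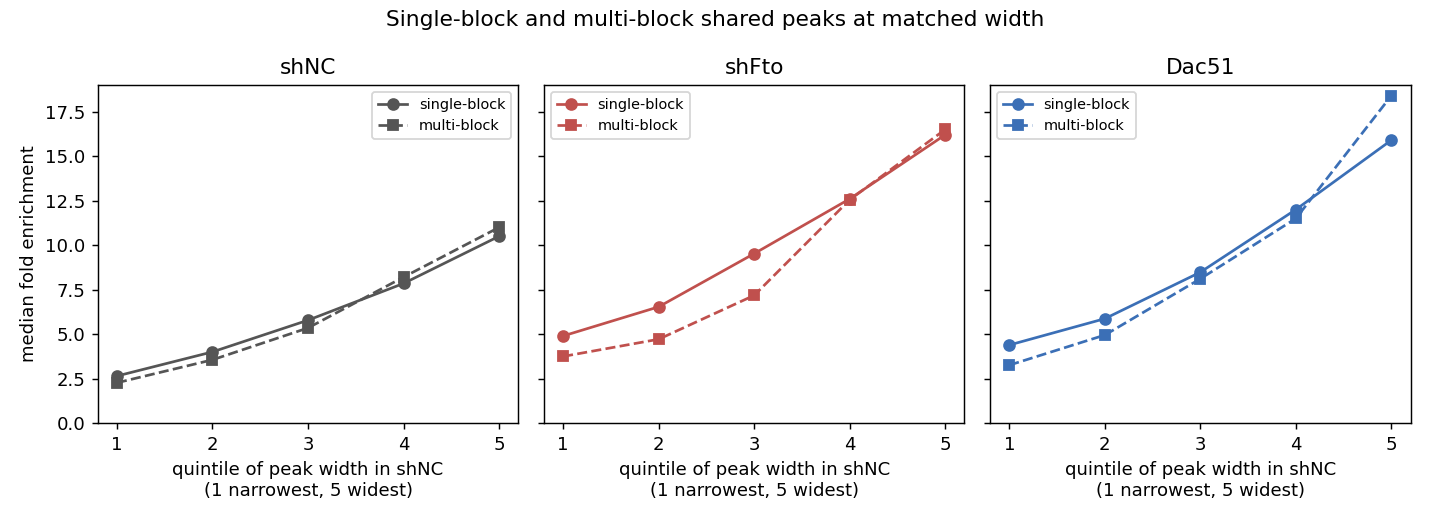
Median fold enrichment (vertical) of single-block (circles, solid) and multi-block (squares, dashed) shared peaks in each quintile of shNC peak width (horizontal), for shNC, shFto and Dac51. Both kinds rise with width; in shNC the pair differs by less than 1 unit of fold in every quintile, and multi-block medians are lower in the 3 narrowest quintiles of every list.

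Shared peaks lay towards the 3′ ends of their genes. Of the 7060 placed on a RefSeq gene, 58.6% had their middle in the last quintile of the gene, introns included, and 8.29% in the first, against 53.6% and 15.2% of unshared shNC peaks. Within 2000 bases of the 3′ end lay 39.3% of shared and 40.3% of unshared peaks, and within 500 bases of the 5′ end 4.19% and 8.93%. Shared peaks thus had the lower shares at the 5′ end and the higher share in the last quintile, while the 2000-base window at the 3′ end showed nearly equal shares. The 296 shared peaks near a 5′ end were multi-block in 31.1% of cases and had smaller median log2 ratios (0.38 for shFto, 0.45 for Dac51) than the 2772 near a 3′ end (0.60 and 0.54). Median shNC folds at the ends were alike, 5.42 and 5.34. Exon, coding and UTR positions were not used here.

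The shared peaks covered 69 annotated transcription starts, where cap m6Am could also be bound by the antibody. The first transcribed base was A at 16 of them (23.2%) and G at 39 (56.5%). Among starts of all genes tested in the RNA, A stood at 28.0% and G at 47.6%. Unshared shNC peaks covered 16 starts, of which 7 (43.8%) had A.

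**Figure D3:**
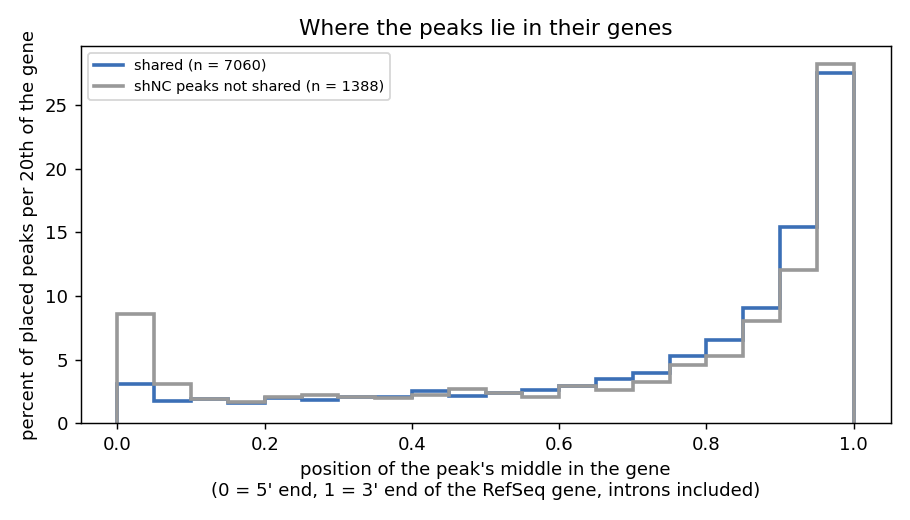
Share of placed peaks (vertical, percent) in each 20th of the gene from its 5′ end (0) to its 3′ end (1), for 7060 shared peaks and 1388 shNC peaks that were not shared. Both lines rise towards the 3′ end, and the unshared peaks have the higher share in the first 20th.

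Many genes held several shared peaks: 1557 of 4686 (33.2%) had 2 or more, and these held 3958 peaks (55.8%). In genes with 1 shared peak the median shNC fold was 5.85 and 15.1% of peaks were multi-block, while in the 76 genes with 5 or more the median was 4.19 and 8.01% were multi-block. Of the 529 genes with 3 or more, 301 had a separate partner for every peak in both lists. Within these 301, the strongest shNC peak was a median of 3.81 times as high as the weakest. The same peak was the strongest in all 3 lists in 185 of them (61.5%). Every peak was higher in shFto in 159 (52.8%) and in Dac51 in 126 (41.9%), and 140 (46.5%) had peaks in both directions in shFto. Peaks of 1 transcript thus did not all move alike.

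**Figure D4:**
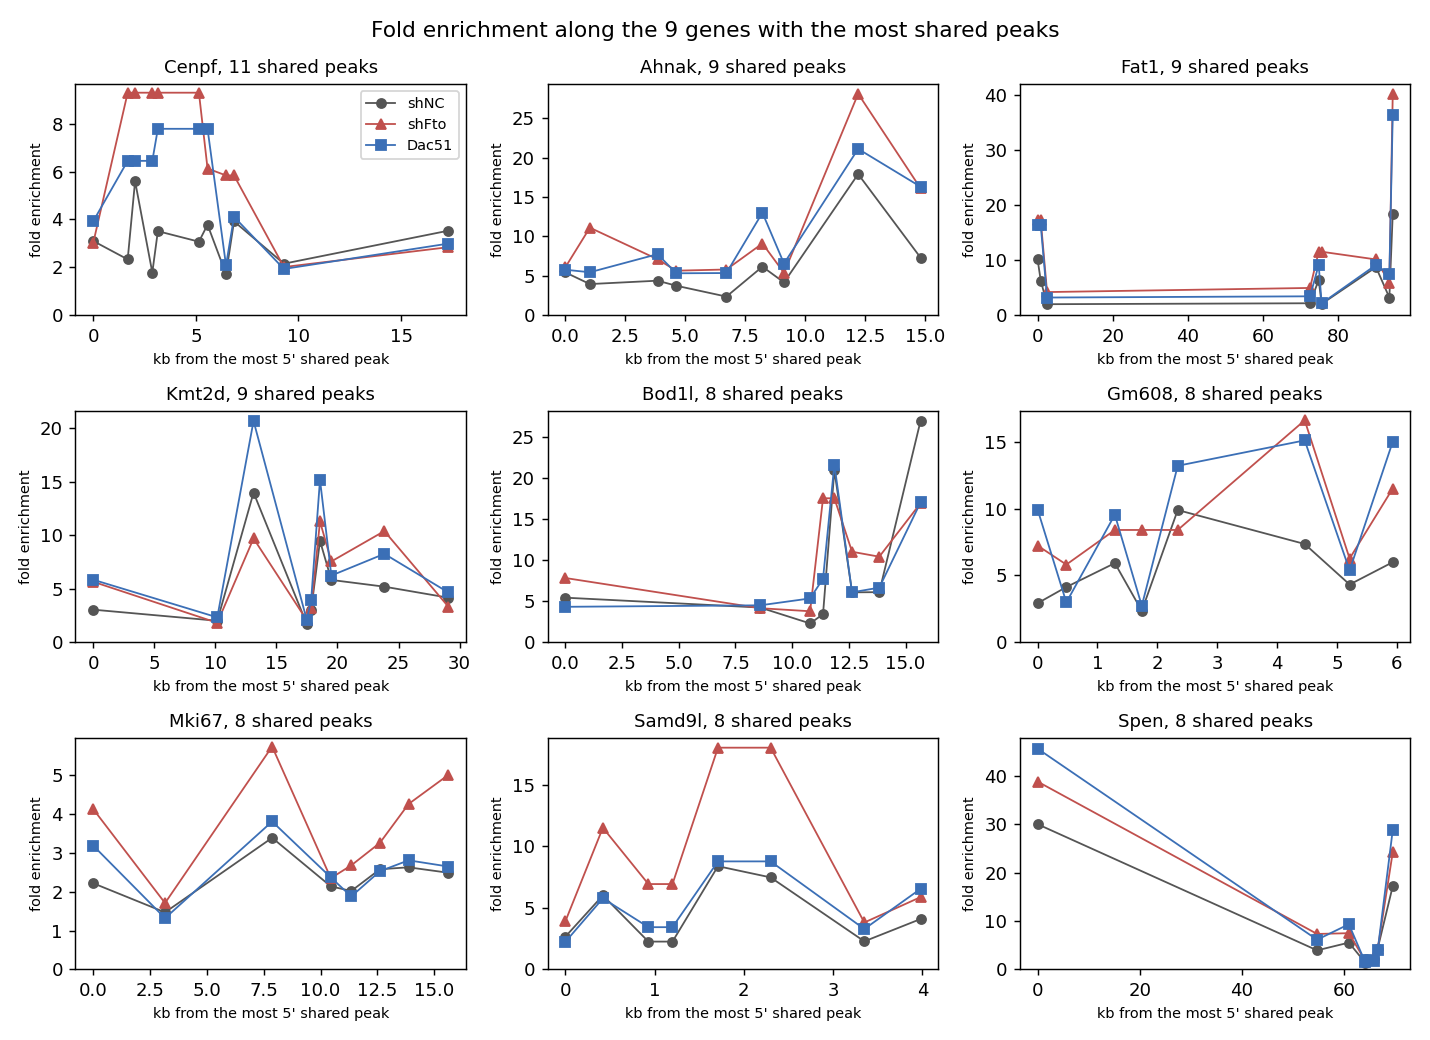
Fold enrichment (vertical) of each shared peak in shNC (circles), shFto (triangles) and Dac51 (squares) by distance in kb from the most 5′ shared peak (horizontal), in the 9 genes with the most shared peaks; lines join peaks of 1 list. The strongest peak of Ahnak, Fat1 and Spen is the same in all 3 lists, and flat stretches in Cenpf and Samd9l are neighbouring peaks that share 1 partner.

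The 9 genes with the most shared peaks, ties at the eighth place included, encode mostly very large proteins. Cenpf, a kinetochore gene on chromosome 1, had 11, with shNC folds of 1.72 to 5.60, shFto folds of 2.01 to 9.30 and Dac51 folds of 1.93 to 7.79. Its 11 peaks met only 6 partners in shFto and 7 in Dac51. Ahnak, a giant scaffold gene on chromosome 19, had 9 single-block peaks over 15.5 kb, each with its own partner. All 9 were higher in both other lists, and the peak at chr19:9013924-9014523 was the strongest, with 17.9, 28.1 and 21.1. Fat1, an atypical cadherin gene on chromosome 8, had 9 peaks over 101 kb, which met 7 partners in shFto and 8 in Dac51. All 9 were higher in both lists, with some neighbours reading the same partner. The last Fat1 peak, of 2 blocks, stood at 18.4, 40.1 and 36.4. Kmt2d, a histone H3 lysine methyltransferase gene, had 9 peaks, all higher in Dac51 and 6 of them higher in shFto. Its strongest at chr15:98849562-98850702 was lower in shFto and higher in Dac51 than in shNC, with 14.0, 9.71 and 20.7.

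Bod1l, a replication fork protection gene, went the other way at its strongest peak, with 26.9 in shNC, 16.9 in shFto and 17.0 in Dac51 at chr5:41816513-41816902. Of its 8 peaks, which met 7 partners in shFto and 8 in Dac51, 5 were higher in shFto and 5 in Dac51. Spen, a corepressor gene with a role in X inactivation, had its strongest peak over 3 blocks at the 5′ side (30, 38.8 and 45.6) and the next at the 3′ side (17.2, 24.2 and 28.8), with weaker ones between. Mki67, which encodes the proliferation marker Ki-67, had 8 low peaks, between 1.47 and 3.39 in shNC. All 8 were higher in shFto, up to 5.74, and 5 in Dac51, up to 3.81. Samd9l, an interferon-induced antiviral gene, also had 8 of 8 higher in shFto, with a highest value of 18 against 8.38 in shNC and 8.77 in Dac51. Its 8 peaks met only 6 partners in each list. The predicted gene Gm608 had 7 of 8 higher in each list, with 6 partners in shFto and 8 in Dac51.

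The RNA of these genes did not move in 1 direction. Ahnak fell from 48.7, 58.6 and 46.0 CPM in shNC to 28.3, 30.8 and 24.1 CPM in shFto, a log2 fold change of -0.89 (SE 0.116, edgeR adjusted p = 1.33e-05), and the groups did not overlap. Kmt2d fell by 0.31 (edgeR adjusted p = 0.0126) and Spen by 0.32 (0.0186), both as log2 fold changes. Neither call held without shFto replicate 2 or without shNC replicate 1 or 2 (edgeR adjusted p = 0.0577 to 0.102), and that of Spen was also lost without shFto replicate 1 (0.0767). Samd9l rose by 0.52 (edgeR adjusted p = 0.00537), Gm608 by 0.45 (0.00278) and Mki67 by 0.27 (0.0267) on that scale. The Mki67 call was lost without shFto replicate 1 (0.135) and without shNC replicate 1 or 3 (0.073 for both). Cenpf, Fat1 and Bod1l did not pass the test, with log2 fold changes of 0.07, 0.08 and 0.16.

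Fto itself held 1 of the weakest shared peaks. It lay at chr8:91409348-91409766, inside the gene and 258667 bases before its 3′ end, with a fold of 1.80 in shNC, 2.16 in shFto and 2.00 in Dac51. Fto RNA, the target of the hairpin, was at 107, 108 and 91.8 CPM in shNC and 31.7, 33.5 and 28.3 CPM in shFto. The groups were well apart (log2 fold change -1.72, SE 0.0979, edgeR adjusted p = 1.6e-10). All 8 melanocyte markers were above 10 CPM in every library, with summed levels of 14600 to 15200 CPM in shNC and 18300 to 19300 CPM in shFto. Of 8 immune markers 4 had no counts, and the immune markers summed to 2.06 to 3.20 CPM. The 5 fibroblast markers, 1 of them in a gene with a shared peak, all had counts and summed to 9.42 to 11.4 CPM in shNC and 4.22 to 5.67 CPM in shFto, and the part of this in the results was not tested. Endothelial markers (3) summed to at most 0.717 CPM and epithelial markers (3) to at most 2.67 CPM.

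In the RNA, 4626 of the 4686 genes with a shared peak passed the expression filter, and 828 of these (17.9%) rose in shFto and 746 (16.1%) fell. Among all 11718 genes tested, 15.9% rose and 16.9% fell. The genes with a shared peak therefore stood near the background in both directions. Genes with no peak in any list rose in 12.9% and fell in 18.5% of 4812 cases. Genes with a peak of which none was shared rose in 18.3% and fell in 15.0% of 2280 cases, so the shared peaks do not stand apart from other peaks here. The counts depended on a library: without shFto replicate 1, 534 rose and 480 fell, and 10.3% and 10.5% of all genes did. Scaling by library totals moved the share of rises among the called genes with a shared peak from 52.6% to 63.6%. In bulk RNA, fewer cells with a transcript and less of it per cell cannot be told apart.

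The number of shared peaks went with the direction of the RNA calls. The share that rose was 16.6%, 19.6%, 21.3% and 23.8% of genes with 1, 2, 3 and 4 or more shared peaks, and the share that fell was 16.5%, 16.6%, 13.5% and 12.2%. Median read abundance also increased along this series, from 37.7 to 78.3 CPM, and its part in the result was not tested. CPM is not per gene length, so it is used here only for how many reads a gene had. Among genes up to 10 CPM, 10.5% of those with a shared peak rose and 8.90% fell. Above 300 CPM, 21.8% of 156 such genes rose and 20.5% fell, against 6.77% and 42.9% of 266 genes with no peak. The widest gap between the classes was thus in falls of abundant genes. The lower share of falls with a shared peak than with no peak was not seen without shNC replicate 3 (14.8% and 14.4%) or without the expression filter (15.8% and 10.5%).

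**Figure D5:**
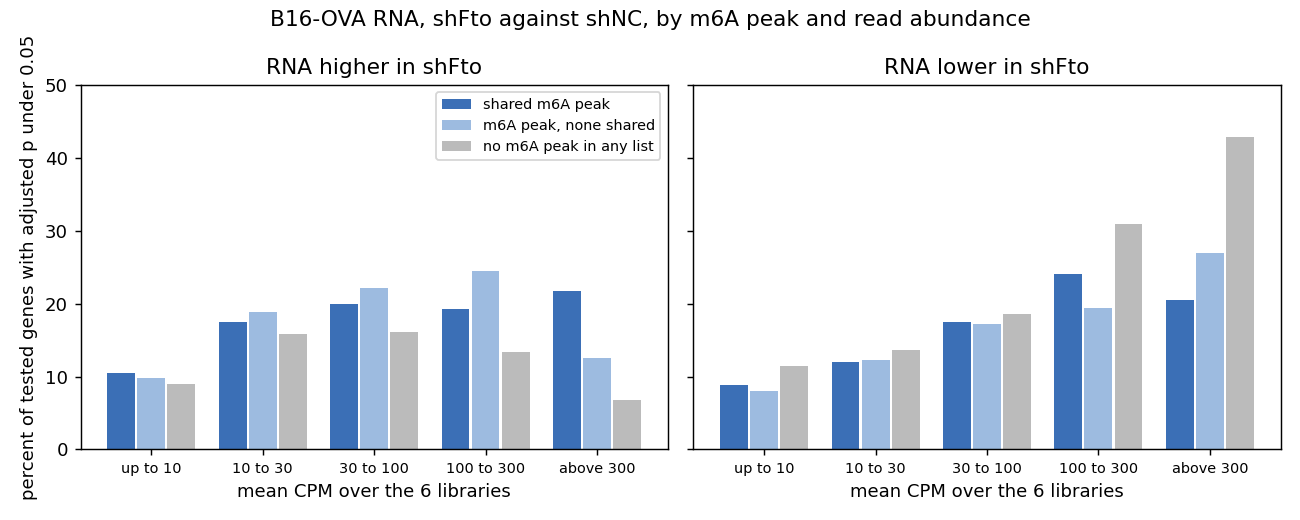
Percent of tested genes (vertical) whose RNA was higher (left) or lower (right) in shFto at an edgeR adjusted p under 0.05, by mean CPM over 6 libraries (horizontal), for genes with a shared m6A peak, with peaks of which none was shared, and with no peak. Above 300 CPM, 42.9% of genes with no peak were lower, against 20.5% of those with a shared peak.

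The change in enrichment and the change in RNA were nearly unrelated across genes. Between a gene's median log2 ratio of fold enrichment (shFto over shNC) and its RNA log2 fold change, Spearman's rho was 0.07 and Pearson's r 0.05 across 4626 genes, which are not independent replicates and share the shNC peak list. For the Dac51 ratio, rho was 0.03 with the same RNA change. Genes whose RNA rose had a median shFto ratio of 0.65, those whose RNA fell 0.48 and those not called 0.62. The middle 50% of each group overlapped the others broadly. Fold enrichment is divided by input, and its relation to the RNA level was not tested further.

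Among genes with a shared peak, those with the largest RNA rises included signalling and pigment genes. Met, the hepatocyte growth factor receptor gene, had 264, 282 and 256 CPM in shNC and 908, 922 and 807 CPM in shFto, a log2 fold change of 1.72 (SE 0.0865, edgeR adjusted p = 2.5e-11). It held 6 shared peaks, the strongest at 6.34, 7.67 and 9.97 in shNC, shFto and Dac51. Sema6d, a semaphorin gene, rose from 17.7 ± 2.27 to 61.6 ± 2.94 CPM (SD, n = 3 each; edgeR adjusted p = 4.95e-10), and its peak at chr2:124664889-124665397 went from 8.37 to 61.8 and 35.2. Sema6d is a case where RNA and enrichment were both higher. Tyr, the rate-limiting enzyme gene of melanin synthesis, rose from 77.0 ± 3.89 to 200 ± 15.5 CPM (SD, n = 3 each; edgeR adjusted p = 4.84e-10) with a nearly level peak of 13.6, 15.3 and 15.5. Nr4a3, a nuclear receptor gene, Wfikkn2, a protease inhibitor gene, Sytl2, a vesicle transport gene, and Id2, an inhibitor of helix-loop-helix factors, rose by 1.33 to 1.79 on the log2 scale. In all of these genes the groups did not overlap, as the rule for naming them required.

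The largest falls included cell surface and signalling genes. Prkg2, a cGMP-dependent protein kinase gene, had 35.2, 35.8 and 29.3 CPM in shNC and 6.23, 4.71 and 4.20 CPM in shFto, a log2 fold change of -2.72 (SE 0.157, edgeR adjusted p = 1.9e-10). Its peak of 2 blocks stood at 9.05, 15.4 and 6.17. Tenm4, a teneurin gene with 4 shared peaks, fell from 40.2 ± 3.53 to 11.5 ± 1.69 CPM (SD, n = 3 each; edgeR adjusted p = 4.26e-09), and its strongest peak went from 30 to 88.9 and 96.2. Tenm4 thus had higher enrichment with lower RNA. Sulf2, a heparan sulfate sulfatase gene, fell from 97.1 ± 5.89 to 30.1 ± 1.42 CPM (SD, n = 3 each; edgeR adjusted p = 8.08e-11) with a level peak of 3.44, 3.35 and 3.93. Also among the largest falls were Sema6a, Fto, the lipid-binding gene Clvs1 and the Wnt receptor gene Fzd2, with log2 fold changes of -1.92 to -1.44.

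Over all tested genes 39.5% held a shared peak, which is the background for the share of each gene list here and below. Among the m6A machinery, 5 of 8 tested writer genes held 10 shared peaks, all of them higher in both other lists, as were 71.0% of all shared peaks. In Rbm15, which guides the complex to RNA, the strongest had 28.3, 29.5 and 33.8, in Zc3h13 23.7, 31.6 and 39.2, and in Wtap 11.7, 23.8 and 25.7. The 10 peaks had median log2 ratios of 0.71 and 0.89, against 0.61 and 0.55 over all shared peaks. These are not all separate values, because the Rbm15 peaks of 28.3 and 12.8 in shNC take the same Dac51 value of 33.8. As log2 fold changes, Rbm15b RNA fell by 0.47 (edgeR adjusted p = 0.0017) and Rbm15 by 0.28 (0.0137), a call lost without shFto replicate 1 or 2 or shNC replicate 1 or 2 (0.0528 to 0.0837). Of 11 tested reader genes 3 had shared peaks, Ythdf1, Ythdf2 and Ythdf3, and all 4 of their peaks were higher in both lists. The Ythdf2 peaks, of 10.4 and 11.1 in shNC, take the same shFto value of 27.1. Ythdf3 had 20.5, 37.2 and 35.9, and its RNA rose from 75.9 ± 3.74 to 115 ± 4.99 CPM (SD, n = 3 each; edgeR adjusted p = 2.01e-05). Ythdf1 had 4.65, 6.75 and 6.10, and its RNA fell from 119 ± 6.94 to 94.3 ± 4.83 CPM (SD, n = 3 each; edgeR adjusted p = 0.00341).

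AP-1 and C/EBP genes, immediate-early and stress-responsive transcription factors, had shared peaks in 11 of 16 tested members. The strong Jun peak at chr4:95049810-95050555 had 43.6 in shNC, 80.2 in shFto and 103 in Dac51. The weaker one, which holds the printed site, had 3.82, 7.55 and the same 103, because 1 Dac51 peak spans both. Jund had 24.7, 25.3 and 34.5, and Cebpb 19, 28.0 and 32.7. The strongest of 3 shared Atf3 peaks had 20 in shNC and 6.17 and 6.85 in the other lists. Its neighbour of 3.98 has the same 2 values, and the third, of 6.11, has 3.52 and the same 6.85, so the Atf3 peaks share partners and do not give separate ratios. Jun RNA fell from 80.3 ± 6.67 to 53.2 ± 6.77 CPM, Jund from 78.2 ± 5.27 to 47.0 ± 6.94 CPM and Atf3 from 4.46 ± 0.417 to 2.13 ± 0.424 CPM (SD, n = 3 each; edgeR adjusted p = 1.94e-04, 3.06e-05 and 0.00635). Of the 11 genes 4 fell and 1, Fos, rose, where 16.9% of all tested genes fell and 15.9% rose.

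The MYC network, which sets growth programmes through E-box DNA, had shared peaks in 6 of 10 tested genes and no RNA call among the 6. Myc had 14.6, 35.0 and 40.3 at chr15:61989492-61990181, and Mga 14.1, 38.9 and 26.0 at the strongest of its 5 peaks. All 12 peaks of the list were higher in shFto and 9 in Dac51, beside 82.2% and 79.7% of all shared peaks. Myc RNA was at 208 ± 19.6 CPM in shFto and 223 ± 5.72 CPM in shNC (SD, n = 3 each; edgeR adjusted p = 0.372).

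Chromatin writers and remodellers carried more shared peaks than any other list here, 106 in 31 of 37 tested genes, against 39.5% of all tested genes. This was also the list with the most tested genes. Some neighbouring peaks read the same partner, as in Asxl1, where peaks of 5.98, 3.94 and 5.76 all took 14.7 and 12.2. The peaks of this list had a median shNC fold of 4.08 and median log2 ratios of 0.72 and 0.67. Nsd1, a histone H3 lysine 36 methyltransferase gene, had the strongest, 100 in shNC and 36.3 and 38.3 in the others. The strongest peak of Kat6a, an acetyltransferase gene, went from 22.9 to 58.2 and 41.9. In the RNA 3 of the 31 rose and 7 fell, against 15.9% and 16.9% of all tested genes, and these counts moved with single libraries and with scaling. No rise was left without shFto replicate 1 or shNC replicate 3, falls numbered 3 or 4 without shFto replicate 1 or 2 or shNC replicate 1 or 2, and scaling by library totals gave 5 rises and 4 falls.

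Pathway genes of the Notch, Hippo, Wnt and TGF-beta families had 57 shared peaks in 23 of 31 tested genes. Axin2, a Wnt feedback inhibitor gene, had 4.08, 11.8 and 3.87 at its first peak and 5.56, 59.1 and 20.8 at its second. At their strongest peaks Lats2, a Hippo kinase gene, had 25.2, 47.7 and 36.5, and Ski, a SMAD corepressor gene, 20.2, 22.8 and 23.1. The RNA of 9 of the 23 rose and 1 fell (15.9% and 16.9% over all tested genes), with a median log2 fold change of 0.09 against -0.00 over all genes. The fall was Fzd2, and without shNC replicate 3 there were 2 falls. Calls were also found in members of this list with no shared peak. Id1, Id3, Smad6 and Ctgf rose (log2 fold changes of 2.87, 2.39, 1.60 and 0.68), and Notch1 fell (-2.70). The rises were thus not confined to genes with a shared peak. Axin2 rose from 11.4 ± 0.980 to 19.7 ± 0.243 CPM (SD, n = 3 each; edgeR adjusted p = 1.82e-04) and Id2 from 177 ± 8.18 to 444 ± 35.8 CPM (SD, n = 3 each; edgeR adjusted p = 9.06e-10).

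Melanocyte genes had shared peaks in 10 of 16 tested members, and 6 of the 10 rose in the RNA, with none falling by the same test. Over all tested genes 15.9% rose and 16.9% fell. These 6 were Tyr, Tyrp1, Pmel, Slc45a2, Rab27a and the master regulator Mitf. Their enrichment was modest, with a median shNC fold of 2.76 for the list's 16 peaks and median log2 ratios of 0.40 and 0.54. Mitf, whose RNA went from 377 ± 31.6 to 589 ± 27.3 CPM (SD, n = 3 each; edgeR adjusted p = 1.53e-05), had 4.28, 8.17 and 6.96 at the strongest of its 3 peaks. Tfap2a, a neural crest factor gene, had the highest of the list, 17.2, 23.7 and 39.8, and no RNA call (adjusted p = 0.759 by edgeR). Sox10, with a log2 fold change of -0.24 (edgeR adjusted p = 0.0527), was called lower under DESeq2, without a filter, with the replicate block and without shFto replicate 3.

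Cell cycle and DNA damage genes had 39 shared peaks in 13 of 28 tested genes. Brca2, a homologous recombination gene, had 13.6, 23.6 and 34.1 at the strongest of its 4 shared peaks. Its others went both ways, with 12.8, 3.43 and 4.99 at 1, 10.7, 114 and 36.6 at another, and 2.03, 7.16 and 6.03 at the last. Atm, a DNA damage kinase gene, had 11.2, 60.9 and 37.8. The RNA of 9 of the 13 rose and 1, E2f1, fell, beside 15.9% and 16.9% of all tested genes, and 5 rose without shFto replicate 1 or without shNC replicate 3. Brca1 rose from 189 ± 1.45 to 335 ± 4.02 CPM (SD, n = 3 each; edgeR adjusted p = 1.66e-07). Interferon and antigen presentation genes had 15 shared peaks in 12 of 23 tested genes, all 15 higher in shFto and 12 in Dac51 (82.2% and 79.7% of all shared peaks). Jak1, a cytokine receptor kinase gene, had 19.9, 36.2 and 17.8, and Ifngr1, the interferon gamma receptor gene, 7.06, 12.9 and 26.4. In the RNA 2 of the 12 rose and 2 fell, near the 15.9% and 16.9% of all tested genes, with Jak1 down from 173 ± 13.7 to 137 ± 9.69 CPM (SD, n = 3 each; edgeR adjusted p = 0.00423). Without shFto replicate 1, 1 rose.

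Housekeeping lists had few shared peaks or none. None of the 36 tested ribosomal protein genes and none of the 27 oxidative phosphorylation genes held one, against 39.5% of all tested genes. Peaks that were not shared lay in 10 of the 36 and 2 of the 27. Median levels of these 2 lists were 755 and 186 CPM. Of all tested genes, 27.2% held a shared peak above 300 CPM and 43.1% did from 100 to 300 CPM. Glycolysis genes had shared peaks in 6 of 24, and these were weak (median shNC fold 2.13). Hk2, the inducible hexokinase gene, had 8.21, 8.64 and 12.3 at the strongest of its 3 shared peaks. Slc2a1, the glucose transporter gene, had 4.98, 9.23 and 9.24. Of the 6 genes 4 fell and Slc16a1, a lactate transporter gene, rose, where 16.9% and 15.9% of all tested genes did. The 4 falls were 2 without any 1 of shFto replicates 1 and 3 and shNC replicates 2 and 3, and with DESeq2. Hk1 fell from 243 ± 4.22 to 161 ± 9.07 CPM (SD, n = 3 each; edgeR adjusted p = 1.33e-05). Cytosolic heat shock and chaperone genes had shared peaks in 3 of 14, with Bag3 at 11.8, 13.4 and 14.0, and another 8 held only peaks that were not shared. None of the 3 with a shared peak passed the RNA test in edgeR or in any other fit run.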

How the data were processed

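The deposited m6A lists are exomePeak output, 1 antibody library per condition, per the file headers: each peak row gives the ratio of antibody to input as a fold enrichment, its p-value, and log10 scores of p and of the false discovery rate. STAR 2.7.0f, Bowtie2 2.3.5 and Trim Galore 0.6.0 are listed in the submitters' processing notes, with MACS2 2.1.3, Picard, deepTools and mm10. Not given in the sources used here are the counting tool, strand setting, annotation and peak threshold. Raw counts per gene symbol fill the deposited RNA table.

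Peaks were overlapped block by block (1 base, same strand), and a partner is the overlapping peak with the highest fold. The overlap code was tested on simulated data. Counts were tested with edgeR 4.0.16 (TMM scaling, default filter, quasi-likelihood test, Benjamini-Hochberg adjustment over all genes, threshold 0.05), with DESeq2 1.42.0 as an alternative, and Python 3.11.15 was used for the rest. Replicate numbers were not used to pair libraries. Sequences and gene ends come from RefSeq tables of GRCm38.p6 (mm10). No genome sequence was used.

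Members and gene lists were chosen with earlier results of these data known. Named were the 10 strongest peaks by lowest fold (1 a gene), the genes with most shared peaks, up to 6 members of each list by shNC fold, the 6 largest rises and falls in both lists, the 8 largest RNA rises and falls without overlap at 10 CPM or more, the peaks at the edge of the rule, and Fto. Genes named beyond this, such as Fos and Axin2, were chosen after their values were seen. A few genes picked this way are not reported here.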

Additional observations from a re-analysis of the deposited data

How the results depend on the processing

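Shared peaks numbered 4222 with a fold enrichment of at least 4 in every list, 83.4% of the shNC peaks at that cut. Of these, 15.8% had several blocks. The other definitions gave 5491 to 7089 shared peaks. Their shares of the shNC peaks ran from 78.9% (lists cut to equal length) to 94.1% (log10 false discovery rate of -5 or lower). The median log2 ratios stayed positive, from 0.52 to 0.62 (shFto) and 0.51 to 0.57 (Dac51), and the median per-peak difference in percentile, from lists of different lengths, was 6.859 and 6.835 points. GGACT was on the opposite strand in 6.16% of peaks with sequence. Leaving out 1 library gave 534 to 933 rises and 480 to 880 falls among genes with a shared peak. Genes with 2 or more shared peaks gave 317 and 238. With the replicate block there were 810 rises and 721 falls. Deviations of same-numbered libraries had correlations of only -0.02 to 0.04, which cannot show whether those libraries shared a culture or batch. Scaling by library totals gave 1048 rises and 601 falls. Of 74 genes called in the RNA among those named by the rule and the list members with a shared peak, 53 kept the call under every alternative fit of the RNA. The depth of the m6A libraries is unknown, which leaves the precision of each fold unstated.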
